A study of Equus caballus with 19 samples.

Results

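The small leucine-rich proteoglycans are secreted proteins of the extracellular matrix that share a core of leucine-rich repeats. Their mRNA was followed here through 9 genes, taken by name from the 29196 gene names of each deposited table: decorin (DCN), biglycan (BGN), asporin (ASPN), lumican (LUM), fibromodulin (FMOD), PRELP, keratocan (KERA), osteoglycin (OGN) and podocan (PODN). All 9 names were present in both tables. The study asked how IL-1β, a proinflammatory cytokine, alters adult tendon cells in three-dimensional collagen gels, and whether IL1Ra, a protein that occupies the IL-1 receptor without activating it, blocks that response. The first batch held 5 tenocyte lines (lines 1 to 5), each as an unstimulated control and with 1 nM IL-1β, which gave 10 libraries. The second batch held 3 other lines (lines 6 to 8), each of them under 3 conditions (control, 1 nM IL-1β, and the same dose of IL-1β together with 100 ng/ml IL1Ra), which gave 9 libraries. All 19 libraries are labelled as wild-type tenocytes of the equine superficial digital flexor tendon and were harvested at day 14. The cells came post-mortem from adult Thoroughbred horses and were passaged before use, the gel was bovine type I collagen, and IL1Ra alone was not sequenced.

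In tendon, these proteins sit on the surface of collagen fibrils and influence fibril diameter and spacing. They are grouped into classes by sequence: DCN, BGN and ASPN belong to class I, FMOD, LUM, PRELP and KERA to class II, OGN to class III and PODN to class V. Chondroitin or dermatan sulfate chains are carried by DCN and BGN and keratan sulfate by FMOD, LUM and KERA, while the TGF-β family is among the ligands of several members.

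The values are normalised counts, and the sum of a library, in units of 1e6 counts, was 43.4 to 49.2 for lines 1 to 5 and 24.96 to 34.6 for lines 6 to 8. The 9 genes made up 0.493% to 0.861% of a first-batch library and 0.325% to 1.65% of a second-batch library. The batches were normalised separately, so no test crosses them and levels are not compared between them. Transcript lengths were not used here, so levels are compared between samples and not between genes. The tenocyte markers SCX and MKX were above 0 in every library, at levels that differed widely. SCX and MKX had 822 to 2110 and 792 to 4654 in the first-batch controls, and 105 to 4720 and 11.5 to 4059 in the second-batch controls. With IL-1β the lowest values were 9.69 for SCX (first batch) and 10.5 for MKX (second batch). Of the other tenocyte markers, THBS4 had 6.97 to 191 in the first-batch controls and 0 to 14.1 with IL-1β. COMP had 131 to 51392 in the second-batch controls and 5.24 to 4497 with IL-1β. TNMD was at 0 in the 10 first-batch libraries and in the 6 treated second-batch libraries, with at most 1.00 in a second-batch control.

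IL-1β lowered ASPN, OGN, PODN and PRELP mRNA in the first batch, and none of the 9 genes met the criteria for an increase. A gene was counted as differentially expressed (DE) at an adjusted p under 0.05 (limma, Benjamini-Hochberg over all 14719 genes tested) together with a log2-fold change of 1 or more in either direction. Fold changes were taken from log2(normalised count + 1), which understates those of low genes. Of the 9 genes, 8 passed the filter of 10 normalised counts in at least 5 libraries, and 4 of these were DE lower and 0 DE higher. Among all genes tested, 7.90% were DE lower and 4.91% DE higher. The median log2-fold change was −2.41 over the 8 genes and −0.0034 over all genes tested. An unadjusted p under 0.05 was reached by 6 of the 8, against 39.5% of all genes. These are bulk libraries, in which fewer cells of a type and less RNA per cell cannot be told apart.

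**Figure D1:**
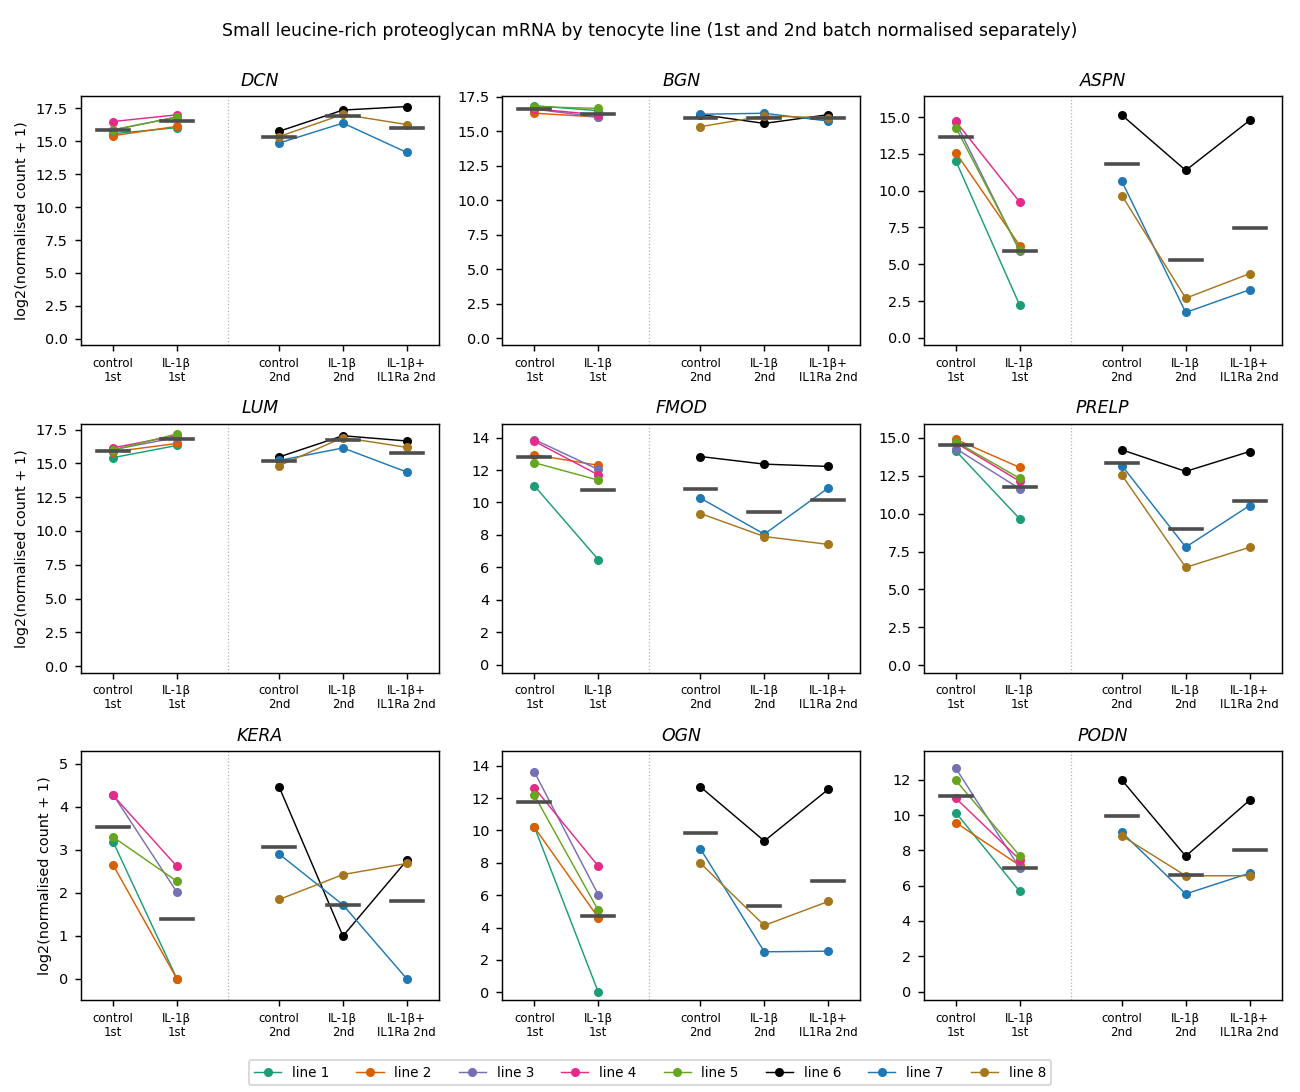
Each panel plots 1 gene as log2(normalised count + 1) on the vertical axis against condition and batch, with a point per library, thin lines joining the libraries of a tenocyte line and grey bars at the group mean. ASPN, OGN, PODN and PRELP fall in every one of lines 1 to 5 with IL-1β, DCN and LUM lie higher in each of them, and line 6 keeps the highest level of all 9 genes with IL-1β + IL1Ra.

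In class I the members differed in direction. ASPN, a collagen-binding protein with a stretch of aspartate residues, had 4147, 6105, 25655, 26607 and 19929 normalised counts in the control libraries of lines 1 to 5 and 3.67, 76.4, 58.2, 599 and 61.6 with IL-1β. Every IL-1β library lay below every control library. The log2-fold change was −7.73 ± 1.08 (SE, n = 5 lines per group, limma adjusted p = 0.00073), and the change within a line ran from −9.80 in line 1 to −5.47 in line 4. With each line left out in turn the change of ASPN stayed between −8.29 and −7.21, and ASPN was DE under each of the alternatives tried in this batch.

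DCN, which binds collagen fibrils and TGF-β, had 48987, 44076, 59314, 93120 and 60475 normalised counts in the controls and 67407, 72301, 118778, 132486 and 117019 with IL-1β. It was higher with IL-1β in 5 of 5 lines, but the groups overlapped. The log2-fold change of 0.73 (95% confidence interval 0.15 to 1.31, limma adjusted p = 0.0626) did not pass the test. Taking the tenocyte line as a block gave DCN a limma adjusted p of 0.0072, and the change stayed under the fold threshold.

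BGN, the close relative of DCN that carries more sugar chains and can signal through Toll-like receptors, had 117758, 80876, 99302, 100659 and 112711 normalised counts in the controls and 91649, 66636, 66130, 74638 and 102716 with IL-1β. Within a line it was lower in 5 of 5, with log2 ratios of −0.59 to −0.13, while the groups overlapped. The log2-fold change of −0.36 (95% confidence interval −0.76 to 0.05, limma adjusted p = 0.172) did not pass the test. The log2 ratio of DCN to BGN within a library, in which library scaling cancels, was 1.09 ± 0.30 higher with IL-1β than in the control of the same line (SD, n = 5 lines) and higher in 5 of 5 lines.

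Class II also held genes on both sides of 0. PRELP, a basic member that links basement membranes and collagen, had 18104, 30648, 20110, 26180 and 27399 normalised counts in the controls and 808, 8493, 3210, 4520 and 5167 with IL-1β. The groups did not overlap, and the log2-fold change was −2.78 ± 0.52 (SE, n = 5 lines per group, limma adjusted p = 0.0032). Line 1 showed the largest change of PRELP within a line, −4.48, and line 2 the smallest, −1.85.

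FMOD, which binds collagen and guides its cross-linking in tendon, had 2074, 7838, 15003, 13955 and 5583 normalised counts in the controls and 88.2, 5008, 4190, 3318 and 2657 with IL-1β. It was lower in 5 of 5 lines, and the groups overlapped because the control of line 1 lay below 4 of the IL-1β libraries. The log2-fold change of −2.03 ± 1.05 (SE, n = 5 lines per group) had a limma adjusted p of 0.176. This call rests on the treatment of the lines: FMOD was DE with the tenocyte line as a block (limma adjusted p = 0.0208), which made 5 of the 8 genes DE lower against 10.2% of all genes. It was also DE when line 1 was left out, with a log2-fold change of −1.41 (limma adjusted p = 0.0187).

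LUM, the keratan sulfate proteoglycan of cornea and tendon, had 44097, 59480, 66186, 72936 and 65074 normalised counts in the controls and 82340, 91260, 124624, 137245 and 149011 with IL-1β. Every IL-1β library lay above every control library. The log2-fold change was 0.91 ± 0.22 (SE, 95% confidence interval 0.43 to 1.38, limma adjusted p = 0.0109), so LUM passed the adjusted p, as 27.7% of all genes did, and missed the fold threshold. Without line 5 the limma adjusted p of LUM was 0.0544. Of the 8 genes tested, the groups did not overlap for 4 lower genes (ASPN, OGN, PODN and PRELP) and for 1 higher gene (LUM), against 10.2% and 9.34% of all genes.

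KERA, known from the corneal stroma, was near the lower limit of measurement in these cells. Its normalised counts were 8.12, 5.27, 18.5, 18.2 and 8.84 in the controls and 0, 0, 3.04, 5.13 and 3.82 with IL-1β, and only 2 libraries reached 10, so it was not among the genes tested. The groups did not overlap. Their means on the log2(normalised count + 1) scale differed by −2.16 (exact permutation test, 2-sided, p = 0.0079, which is the lowest p possible with 252 arrangements), and with no filter on low values the limma adjusted p of KERA was 0.0330.

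The class III gene OGN and the class V gene PODN were both DE. OGN, which binds collagen and was first isolated from bone, had 1178, 1165, 12454, 6329 and 4597 normalised counts in the controls and 23.4, 64.0, 221 and 32.4 with IL-1β in lines 2 to 5, and was listed at 0 in the IL-1β library of line 1. No library overlapped between the groups. The log2-fold change of −7.06 ± 1.27 (SE, n = 5 lines per group, limma adjusted p = 0.0028) depends in size on the pseudocount because of that 0, and was −7.27 with a pseudocount of 0.5 and −6.50 with 5.

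PODN, a collagen-binding member known from vascular smooth muscle, had 1132, 764, 6484, 1994 and 4023 normalised counts in the controls and 50.4, 141, 128, 178 and 207 with IL-1β. The controls spread over a wider range than the treated libraries, and the groups did not overlap. The log2-fold change was −4.06 ± 0.59 (SE, n = 5 lines per group, limma adjusted p = 0.00088), with −5.65 in line 3 as the largest change within a line and −2.43 in line 2 as the smallest. OGN, PODN and PRELP, like ASPN, were DE under each alternative tried in the first batch, each left-out line included.

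**Figure D2:**
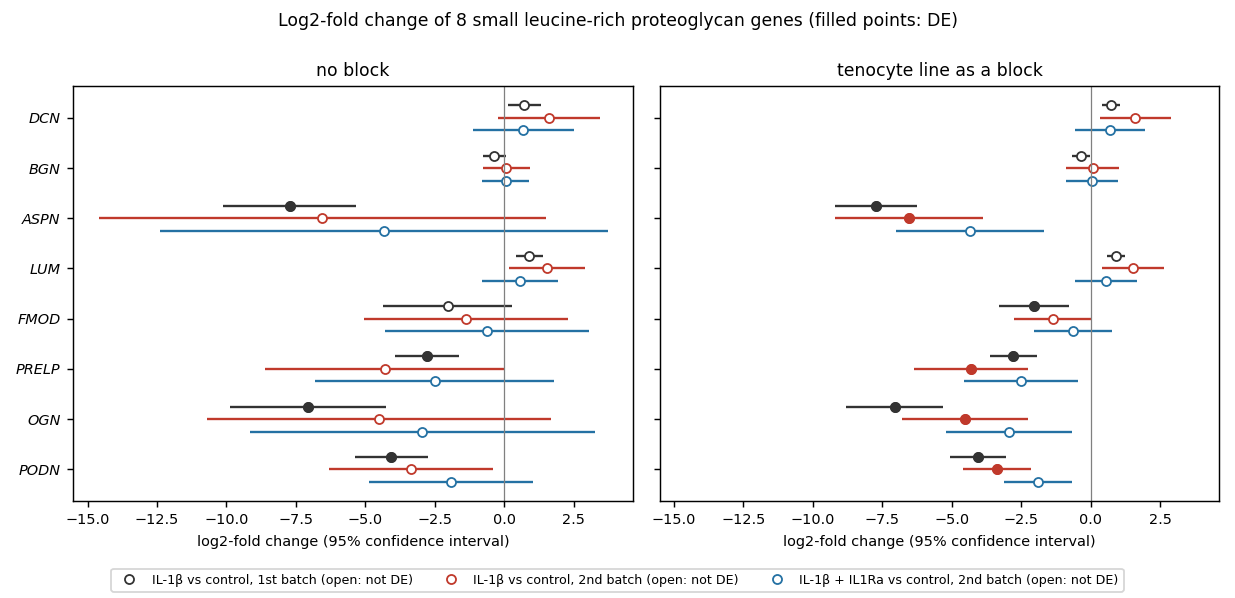
Points are log2-fold changes of the 8 tested genes with 95% confidence intervals on the horizontal axis, without (left) and with (right) tenocyte line as a block, for IL-1β in each batch and for IL-1β + IL1Ra against control. Filled points are DE: 4 first-batch and 0 second-batch changes with IL-1β when no block is used, 5 and 4 with it, and none for IL-1β + IL1Ra.

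The tenocyte lines did not respond to the same extent. In the IL-1β libraries of the first batch, line 1 had the lowest value for 8 of the 9 genes, all but BGN, and the ratio of IL-1β to control was lowest in line 1 for 6 of the 9. In the controls line 1 was lowest for 4 genes and line 2 for 5. Line 6 stood apart from lines 7 and 8. It had the highest control value for 8 of the 9 genes, the highest IL-1β value for 7 and the highest IL-1β + IL1Ra value for 9, and line 8 had the lowest control value for 8.

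The same 4 genes were lower with IL-1β in each line of the second batch, without passing the test that ignores the lines. ASPN had 35912, 1587 and 813 normalised counts in the controls of lines 6, 7 and 8, and 2658, 2.32 and 5.49 with IL-1β. The control of line 7 lay below the IL-1β library of line 6, so the groups overlapped although ASPN changed by −8.90 to −3.76 on the log2 scale within a line. The log2-fold change was −6.54 (95% confidence interval −14.60 to 1.52, limma adjusted p = 0.541). With the tenocyte line as a block the interval was −9.19 to −3.89 and the limma adjusted p 0.0226.

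OGN had 6602, 464 and 250 normalised counts in the controls and 650, 4.65 and 16.5 with IL-1β, again with a treated library of line 6 above the controls of the other lines. Its log2-fold change of −4.52 had a limma adjusted p of 0.602, and of 0.0405 with the block. PRELP had 19003, 9240 and 5988 in the controls and 7085, 221 and 86.9 with IL-1β. Within a line PRELP changed by −1.42 in line 6 but by −5.38 and −6.09 in lines 7 and 8, and its log2-fold change of −4.30 had a limma adjusted p of 0.438, and of 0.0355 with the block.

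PODN was the only one of the 4 whose groups did not overlap, with 4081, 520 and 454 normalised counts in the controls and 204, 45.4 and 93.6 with IL-1β. Its log2-fold change was −3.36 (95% confidence interval −6.31 to −0.40), with a limma adjusted p of 0.366, and of 0.0174 with the block. FMOD had 7288, 1228 and 637 in the controls and 5263, 263 and 238 with IL-1β, lower in 3 of 3 lines. Its log2-fold change of −1.37 had a limma adjusted p of 0.852, and of 0.237 with the block.

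DCN and LUM lay higher with IL-1β than in any control of the second batch. DCN had 55627, 29947 and 42147 normalised counts in the controls and 170170, 85795 and 135436 with IL-1β, so that its change within a line fell in a narrow range, from 1.52 to 1.68 on the log2 scale. LUM had 45613, 38095 and 29061 in the controls and 135681, 72490 and 123743 with IL-1β, a change of 0.93 to 2.09 within a line. The log2-fold changes of 1.61 for DCN (95% confidence interval −0.22 to 3.43) and 1.53 for LUM (0.17 to 2.89) had limma adjusted p values of 0.498 and 0.371, and of 0.137 and 0.113 with the block.

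BGN showed no common direction, with 75635, 76710 and 41169 normalised counts in the controls and 48481, 80570 and 70328 with IL-1β. Its log2-fold change of 0.07 had a 95% confidence interval of −0.78 to 0.92 and turned negative, to −0.12, when the libraries were rescaled to equal sums. The log2 ratio of DCN to BGN was 1.54 ± 0.68 higher with IL-1β (SD, n = 3 lines) and higher in 3 of 3 lines. KERA had 21.1, 6.48 and 2.59 in the controls and 0.99, 2.30 and 4.37 with IL-1β, and did not pass the filter. Its means on the log2(normalised count + 1) scale differed by −1.36 (exact permutation test, 2-sided, p = 0.2, where the lowest p possible is 0.1). With no filter on low values the limma adjusted p of KERA was 0.751.

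Over the 8 genes tested in the second batch, 0 were DE with IL-1β, against 0.341% of the 16705 genes tested, and 2 (LUM and PODN) had an unadjusted p under 0.05, against 11.4%. With the tenocyte line as a block 4 were DE lower (ASPN, OGN, PODN and PRELP), against 2.59% of all genes. With the block and a line left out, the calls of the 8 genes followed those of all genes. Without line 7 or without line 8, 0 of the 8 were DE, where 0 of 16907 and 33 of 16717 genes were DE. Without line 6 the same 4 were DE, among 1421 of 16707 genes. When line 6 was left out without the block, 3 were DE, among 364 of 16707 genes. These were ASPN at −7.94 (limma adjusted p = 0.0067), PRELP at −5.73 (0.0384) and PODN at −2.88 (0.0322). The groups did not overlap for 1 lower gene and 2 higher genes, against 7.61% and 8.82% of all genes. The median log2-fold change was −2.36 over the 8 genes and −0.0084 over all genes.

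IL1Ra given with IL-1β left the 9 genes at levels that differed from line to line, and no change passed the test. In lines 6, 7 and 8 the doubly treated libraries held 27871, 8.65 and 19.6 normalised counts of ASPN. That was 77.6% of the control library in line 6 but 0.545% in line 7 and 2.41% in line 8, where IL-1β alone gave 7.40%, 0.146% and 0.676%. The log2-fold change of ASPN against control was −4.34 (95% confidence interval −12.41 to 3.72). With the tenocyte line as a block the interval was −6.99 to −1.70 and the limma adjusted p 0.189.

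With both agents OGN had 5944, 4.80 and 47.8 normalised counts, or 90.0%, 1.04% and 19.1% of control. PRELP had 17566, 1482 and 219, or 92.4%, 16.0% and 3.66% of control. PODN had 1841, 104 and 93.8, or 45.1%, 20.01% and 20.7% of control. For ASPN, OGN and PRELP, line 6 was thus at 77.6% of its control or more and lines 7 and 8 were at 19.1% or less, while for PODN the 3 lines lay closer together.

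With both agents FMOD had 4772, 1899 and 170 normalised counts, or 65.5%, 155% and 26.6% of control, so that line 7 lay above its control and the other lines below. DCN had 204720, 18227 and 79350, or 368%, 60.9% and 188% of control. LUM had 103605, 21076 and 74633, or 227%, 55.3% and 257% of control. Both DCN and LUM were therefore above control in lines 6 and 8 and below it in line 7. BGN had 75029, 54534 and 64410, or 99.2%, 71.1% and 156% of control, and KERA had 5.74, 0 and 5.42.

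**Figure D3:**
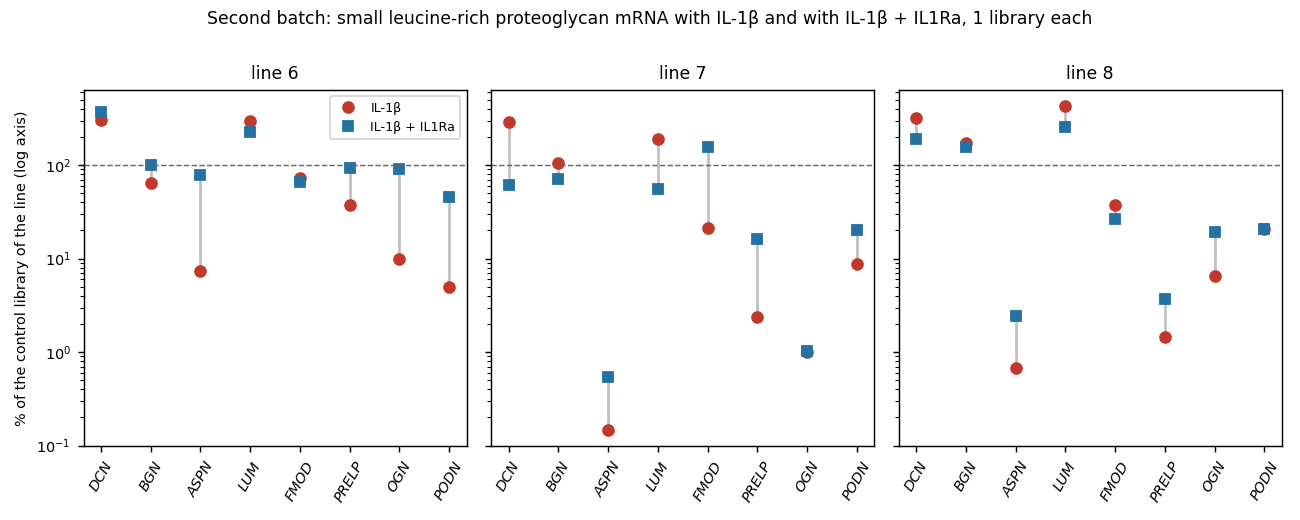
For lines 6, 7 and 8 of the second batch, the vertical log axis gives the level of 8 genes as a percentage of the control library of that line, with circles for IL-1β, squares for IL-1β + IL1Ra and a dashed line at 100%; KERA is left out for its low counts. In line 6 the squares of ASPN, OGN and PRELP reach 77.6% to 92.4%, and in lines 7 and 8 they stay between 0.545% and 19.1%.

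Against control, 0 of the 8 genes were DE with IL-1β + IL1Ra without the block and 0 with it, against 0.0120% and 0.251% of all genes. In the fit without the block 0 had an unadjusted p under 0.05, against 5.67%. With the block the unadjusted p (limma) was 0.0058 for ASPN, 0.0075 for PODN, 0.0176 for OGN and 0.0228 for PRELP. It was above 0.05 for FMOD, DCN, LUM and BGN, and the share of all genes under 0.05 with the block was not taken. Without line 6, ASPN was DE at −6.33 (limma adjusted p = 0.0309), among 63 of 16707 genes. With the block as well PRELP (−3.70, 0.0116) and PODN (−2.29, 0.0302) joined it, among 537 of 16707 genes. Against IL-1β alone, 0 of the 8 were DE without the block and 0 with it, against 0% and 0.00599% of all genes. Here too 0 had an unadjusted p under 0.05 without the block, against 2.78%. The log2-fold changes between IL-1β + IL1Ra and IL-1β were 2.20 for ASPN, 1.79 for PRELP, 1.57 for OGN and 1.45 for PODN, each higher in 3 of 3 lines, and −0.91 for DCN and −0.97 for LUM. LUM was lower in 3 of 3 lines and DCN in 2. The comparisons with control share their control libraries, and the same IL-1β libraries enter the last one.

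Several of these genes lie next to each other in the genome. In a RefSeq annotation of a newer horse assembly, which was used for names and gene order only and matched all 9 names, the order of protein-coding genes ran ECM2, ASPN, OMD, OGN in one place, EPYC, KERA, LUM, DCN in another and FMOD, PRELP, OPTC in a further one, while BGN lay between ECMX and ATP2B3 and PODN between SLC1A7 and SCP2, none of them among the genes examined here. In the first batch all 4 genes of the run that holds ASPN and OGN were DE lower, as were 7.90% of all genes tested. In the run that holds LUM and DCN, those genes had positive log2-fold changes, whereas KERA, immediately beside LUM, and EPYC had negative differences (−2.16 and −2.10) at counts too low to be tested. FMOD and PRELP both had negative changes, and OPTC, with at most 15.6 normalised counts, was not tested. With all lines of the second batch, ECM2, ASPN, OMD and OGN were not DE without the tenocyte line as a block. They were DE lower with it, as were 2.59% of all genes.

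**Figure D4:**
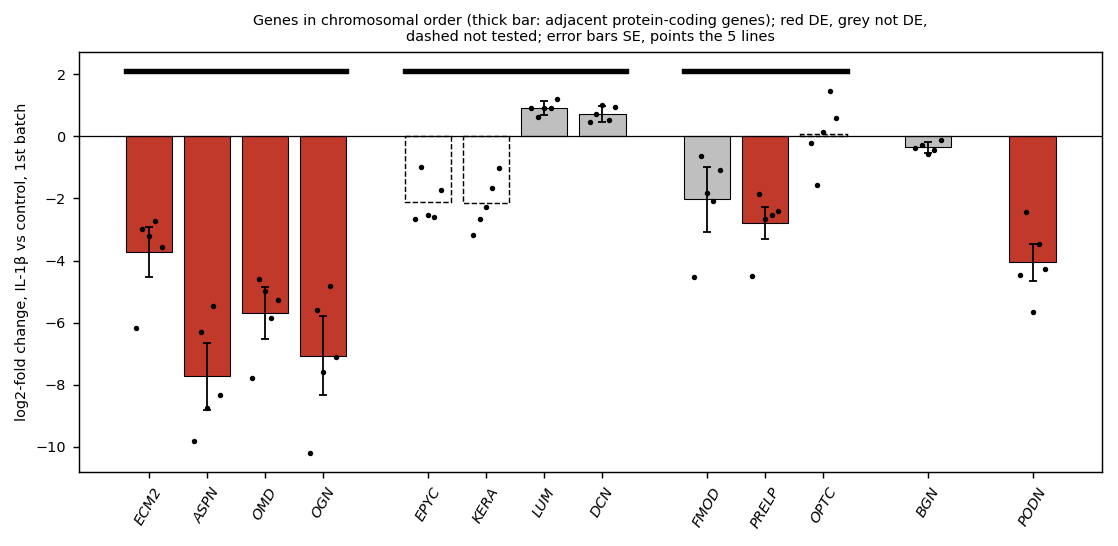
Bars are log2-fold changes of IL-1β against control in the first batch with SE as error bars, points are the 5 lines, and genes stand in chromosomal order with a thick bar over runs of adjacent genes. Bars of ECM2, ASPN, OMD, OGN, PRELP and PODN are DE, those of LUM, DCN, FMOD and BGN are not, and the dashed bars of EPYC, KERA and OPTC belong to genes that were not tested and carry no error bar.

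Of 9 relatives with the same repeats that are not among the 9 genes above, 5 were tested in the first batch and 2 were DE, both lower, against 7.90% of all genes. OMD, the keratan sulfate proteoglycan osteomodulin, had 221 to 994 normalised counts in the controls (median 674) and 0 to 24.4 with IL-1β (median 16.2), and its log2-fold change was −5.70 ± 0.84 (SE, n = 5 lines per group, limma adjusted p = 0.00097). ECM2, a matrix protein with leucine-rich repeats, had 786 to 2992 in the controls and 16.1 to 437 with IL-1β, and its log2-fold change was −3.73 ± 0.81 (SE, limma adjusted p = 0.0070). Both were DE lower in the second batch with the block only, at −4.71 (limma adjusted p = 0.0309) for OMD and −3.19 (0.0362) for ECM2, where 2.59% of all genes were DE lower.

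TSKU, a secreted member that binds growth factors, had 4834 to 10063 normalised counts in the controls and 8667 to 15219 with IL-1β in the first batch. Its log2-fold change of 0.72 (limma adjusted p = 0.0318) missed the fold threshold. The changes of PODNL1, the nearest relative of PODN, and of CHAD, a cartilage matrix protein, were 0.43 (95% confidence interval −1.07 to 1.94) and 0.20 (−0.51 to 0.90), and that of CHAD turned to −0.02 without line 1. EPYC, OPTC, CHADL and NYX had at most 52.7, 15.6, 8.65 and 42.4 normalised counts and did not pass the filter.

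Among the fibrillar collagens that these proteins bind, 4 of 5 tested were DE lower in the first batch and 0 higher, against 7.90% and 4.91% of all genes. The 3 largest changes were −3.71 for COL11A1, −1.83 for COL1A1 and −1.82 for COL5A1. Of these 5, 0 were DE in the second batch without the block and 0 with it, against 0.341% and 5.18% of all genes. All 5 log2-fold changes were negative. The name COL3A1 was not found in the tables.

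Of the proteases that process or cleave small leucine-rich proteoglycans, 6 of 10 tested were DE higher in the first batch and 1 DE lower, against 4.91% and 7.90% of all genes. MMP8, MMP3 and MMP13 had the largest changes, 7.53, 6.51 and 4.36. MMP13, a collagenase that also cuts FMOD, had 8506 to 37599 normalised counts in the controls and 114282 to 768255 with IL-1β. The gene that was DE lower was TLL1, a relative of the protease BMP1 that trims propeptides, at −4.34 (limma adjusted p = 3.5e-05). It was named after its value was seen. In the second batch 0 of 10 were DE without the block, and 5 higher and 1 lower with it, against 0.341% and 5.18% of all genes in either direction.

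Of 24 enzymes tested that build or modify the sugar chains, 1 was DE higher and 2 were DE lower in the first batch, against 4.91% and 7.90% of all genes, so the count does not set the list apart. CSGALNACT1, which starts chondroitin chains, had a log2-fold change of −1.36 (limma adjusted p = 0.0327) that was no longer DE without line 2, 3, 4 or 5, with limma adjusted p values of 0.0538 to 0.134. CHST3, a chondroitin sulfotransferase, had a change of −1.26 (limma adjusted p = 0.00067). CHST2, a sulfotransferase acting on keratan sulfate-type chains, changed by 1.05 (limma adjusted p = 0.0026) and fell under the fold threshold without line 3 (0.94) or line 4 (0.97). Of the same 24, 0 were DE in the second batch without the block and 0 with it, against 0.341% and 5.18% of all genes.

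Of 11 ligands and receptors of the family tested, 1 was DE in the first batch, against 12.8% of all genes. TGFB1, the growth factor bound by DCN, had a log2-fold change of −1.10 (limma adjusted p = 0.0085), which was −0.98 without line 1 and −0.94 without line 5 and then not DE. With the block TLR4, a receptor for soluble DCN and BGN, was DE higher as well, at 1.70 (limma adjusted p = 0.00063 with the block and 0.279 without). TLR4 was named after its value was seen. In the second batch 0 of 11 were DE, and 1 with the block, against 0.341% and 5.18% of all genes. That gene was TGFB2, higher at 1.52 (limma adjusted p = 0.0181 with the block), which was also named after its value was seen. TLR4, at 1.84, was not DE there with the block (limma adjusted p = 0.0689), and neither was TGFB1, at −0.19.

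The genes whose pattern was most like each member were ranked by Pearson's r of log2(normalised count + 1) over the 10 libraries of the first batch, and r over the 9 libraries of the second is given beside it. ASPN was most like SGCD (r = 0.991 and 0.968) and COL11A1 (0.990 and 0.708). OGN was most like ITGA11 (0.993 and 0.960) and ENPP1 (0.993 and 0.679). PODN went with SORBS3 (0.992 and 0.843) and FAM129A (0.987 and 0.928). The genes nearest to these 3 members in the first batch had an r of at least 0.679 with them in the second, as had those nearest to PRELP and FMOD. The r of all other genes in the second batch was not taken for comparison.

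For PRELP the nearest genes were CD9 (0.979 and 0.947) and KCNN4 (0.976 and 0.915), and for FMOD they were SPATA18 (0.958 and 0.754) and FAM241B (0.958 and 0.914). DCN was most like ZFYVE26 (0.944 and 0.426) and FAT1 (0.938 and 0.578), LUM most like C26H21orf2 (0.964 and 0.614) and TFIP11 (0.960 and −0.094), and BGN most like MFAP2 (0.971 and 0.30) and TBC1D5 (0.968 and −0.078). These r values describe libraries that share 2 conditions and 5 lines, or 3 and 3, and the first of each pair is the value by which the gene was picked.

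Markers of other cell types moved with IL-1β in the first batch, and their part in the changes above was not tested. For the counts that follow, 7.90% of all genes were DE lower and 4.91% DE higher. All 6 tenocyte markers tested of 8 were DE lower, with a summed level of 961420 to 1724990 normalised counts in the controls and 312799 to 669632 with IL-1β. COL1A1 and COL1A2 made up most of that sum, with control medians of 582578 and 730770, against 1516 for SCX and 1702 for MKX. The 3 chondrocyte markers summed to 7413 to 42946 and 71.2 to 1140, with 2 of 2 tested DE lower and COL2A1 at no more than 4.15 in any library. The 3 epithelial markers summed to 1413 to 3905 and 21.8 to 544, nearly all of it CDH1, with EPCAM at no more than 1.21 and KRT5 at no more than 14.4. The 4 pericyte and smooth muscle markers summed to 20047 to 36892 and 10817 to 22351, with 2 of 4 DE lower.

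The 6 leukocyte markers summed to 58.3 to 2076 normalised counts in the controls and 311 to 3713 with IL-1β. Of them only CD68 was tested, and it was DE higher, as were 4.91% of all genes. PTPRC and CD3E were at most 3.64 and 0 in the first batch. CD14 had a median of 0 in both groups but reached 1947 in the controls and 2811 with IL-1β, most of the largest sums. In the second batch the 6 leukocyte markers summed to 230 to 1267 in the controls, 672 to 3052 with IL-1β and 728 to 2051 with IL-1β + IL1Ra. CD14 reached 1195, 1262 and 1482 in those groups. The 4 endothelial markers summed to at most 84.7 in any library of the first batch, with 0 of 2 tested DE, against 12.8% of all genes. In the second batch the tenocyte markers summed to 194881 to 793752 in the controls, 218326 to 323039 with IL-1β and 111938 to 583119 with IL-1β + IL1Ra, and the chondrocyte markers to 535 to 12921, 47.3 to 326 and 104 to 5808.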

How the data were processed

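RNA sequencing libraries of equine tenocytes (19 libraries, stranded mRNA, paired-end) were analysed from 2 deposited tables, 1 per batch. The authors quantified reads against the EquCab3.0 transcriptome (Salmon), imported them at gene level (tximport) and normalised each batch with DESeq2 1.36 in R 4.2.1. The deposited signal values are therefore normalised counts per gene and not raw reads. Each column matched 1 sample by its label. Only 59.8% to 75.3% of the values under 8 in a library lay within 0.05 of whole reads, so reads were not recovered, no count model was fitted and the depth in reads behind a value is unknown.

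Values were transformed to log2(normalised count + 1). A gene had to reach 10 normalised counts in 5 or more libraries (first batch, 14719 genes) or 3 or more (second batch, 16705 genes), and was fitted across all genes with limma 3.58.1 in R 4.3.3 (lmFit, eBayes with trend), with Benjamini-Hochberg adjustment. The 3 conditions of the second batch shared a fit. Levels, ratios and figures were made with Python 3.11.15, pandas 2.3.3, scipy 1.17.1 and matplotlib 3.10.9. The code of the fit was tried on simulated data with a capped dispersion, and no result above rests on it. The main fit has no block, since the study states none. Libraries of a line come from the same cells, so line numbers pair them: deviations from the condition means correlated at 0.351 to 0.578 within lines (5 pairs) and −0.356 to 0.288 between lines (20 pairs) in the first batch, and at 0.535 to 0.794 (9 pairs) and −0.625 to 0.249 (18 pairs) in the second.

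The 9 genes, the gene lists and the rule for named genes were chosen with earlier results of these data known. Named were the 9 genes, 9 relatives, at most the 3 DE genes of largest change in the first batch from each list of enzymes, proteases, ligands and receptors and collagens, the 2 genes most correlated with each tested member, and the cell type markers. CHPF2, CCN2 and COL3A1 were not matched by name. No sequence is shown. Other assays of the study were not analysed here.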

Additional observations from a re-analysis of the deposited data

Results flagged for a closer look

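The 9 genes gave 27 sets of 5 values in the first batch on the log2 scale: the controls, the IL-1β libraries and the within-line ratios of each gene. In 1 of them the extreme value lay farther from the rest than Dixon's 95% limit allows. The IL-1β library of line 1 had 88.2 normalised counts of FMOD, whereas the other 4 IL-1β libraries had 2657 to 5008. The control library of line 1 was also the lowest of its group for FMOD, at 2074. About 1 set in 20 is marked in this way by chance.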

How the results depend on the processing

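In the first batch the count of DE members (4 of 8, all lower) kept within 1.5 times under each alternative: pseudocounts of 0.5 and 5, no filter and a filter of 50, equal sums, equal upper quartile, no trend, the block, the adjusted p alone, and each line left out. In the second batch the count of members DE with IL-1β was 0, and 4 with the tenocyte line as a replicate block. It was 0 to 3 with each line left out, and 0 to 4 with a line left out and the block (added after seeing the data). For IL-1β + IL1Ra against control it was 0, and 0 to 1 and 0 to 3 with a line left out, without and with the block. Leaving out line 6 gave the higher counts, and 2 lines per condition then remain. Among the members the block changed 1 further call, that of FMOD with IL-1β in the first batch (adjusted p = 0.0208, limma). Direction turned for some changes of BGN, FMOD and CHAD. BGN with IL-1β in the second batch became −0.12 with equal sums and −0.29 without line 8. For IL-1β + IL1Ra against control BGN became −0.034 and −0.25 in the same settings, and FMOD turned from −0.63 to 0.0089 without line 8. Against IL-1β, BGN became 0.082 with equal sums, 0.0088 with equal upper quartile, 0.25 without line 7 and 0.033 without line 8. In that comparison FMOD turned from 0.74 to −0.31 without line 7. CHAD in the first batch became −0.020 without line 1. Values without line 7 or 8 were alike with the block, and these causes were not tested. Over all genes 1885 were DE in the first batch and 4078 by adjusted p alone. With IL-1β in the second batch 57 were DE, 865 with the block, 34 with no trend or with 2 conditions only, and 0 to 364 with a line left out. When a line was left out and the block was used, 0 to 1421 were DE. For IL-1β + IL1Ra against control 2 were DE, 42 with the block, 1 with equal sums, 0 with 2 conditions only, and 0 to 63 with a line left out. It was 0 to 537 with a line left out and the block. Against IL-1β alone 0 were DE, 1 with the block, 10 without line 6, and 172 without line 6 and with the block. With 3 lines per condition, differences between the lines limit what the second batch can show.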

Other observations

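In line 6, IL1Ra left the members on different sides of the IL-1β value. ASPN, OGN and PRELP stood at 77.6%, 90.0% and 92.4% of control with IL-1β + IL1Ra, after 7.40%, 9.85% and 37.3% with IL-1β alone. In the same library DCN stood at 368% of control, after 306% with IL-1β alone, and LUM at 227% after 297%. In line 7, ASPN stood at 0.545% and OGN at 1.04% of control, and DCN (60.9%) and LUM (55.3%) were below control as well. Each of these is 1 library, and no test was made.

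Among the relatives, OMD had 537, 119 and 64.0 normalised counts in the controls of lines 6, 7 and 8 and 447, 1.93 and 9.84 with IL-1β + IL1Ra, which split the lines as for ASPN. ECM2 had 2594, 187 and 261 with IL-1β + IL1Ra, or 140%, 14.7% and 38.7% of control. TSKU, whose change with IL-1β in the second batch was 0.95 to 0.99 on the log2 scale within each line, had 129%, 104% and 151% of control with IL-1β + IL1Ra, after 199%, 193% and 196% with IL-1β alone. The ratio of LUM to FMOD counts within a library, which carries the unequal transcript lengths of the pair in the same way in every library, was 4.41 to 21.3 in the first-batch controls and 18.2 to 934 with IL-1β, and higher with IL-1β in 5 of 5 lines.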
